A study of Homo sapiens with 9 samples.

Results

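The HTRA serine proteases were examined in A549 cells, which derive from an adenocarcinoma of the human lung, treated for 7 days with inhibitors of protein arginine methyltransferases (PRMTs). The members are HTRA1, HTRA2, HTRA3 and HTRA4, 4 of the 51796 genes in the count table, taken by symbol. HTRA3 was chosen because it was much lower with both inhibitors than in the controls, so its values against DMSO are given as a description without a test. HTRA1, HTRA2 and HTRA4 came in as the rest of the family. One treated group received GSK591, which blocks PRMT5 and with it most symmetric dimethylation of arginine. The other received MS023, which blocks type I PRMTs, among them PRMT1, and with them asymmetric dimethylation. Both were used at 1 µM, and the controls received the solvent DMSO. Each group had 3 libraries of total RNA, made with random hexamers after removal of ribosomal RNA. Treated plates were seeded with 0.4 times 1e5 cells and control plates with 0.2 times 1e5 cells, so treatment and seeding cannot be told apart in a comparison with DMSO. Whether the replicates were separate cultures is not stated. The spread behind every p-value is therefore that between libraries and may be technical. The RNA is bulk RNA of a single cell line, in which fewer cells with a transcript and less transcript per cell cannot be told apart.

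HTRA proteases share a trypsin-like catalytic domain followed by at least a single PDZ domain, a module that binds the ends of other proteins. HTRA1, HTRA3 and HTRA4 are secreted and carry an amino-terminal segment related to the IGF-binding proteins. HTRA1 cuts matrix proteins such as fibronectin, and inherited loss of it causes a disease of small brain vessels. HTRA3 was first described in the placenta, also cuts matrix proteoglycans, and has been reported, like HTRA1, to dampen TGF-beta signalling. HTRA2, also called Omi, sits between the mitochondrial membranes, where it takes part in protein quality control. When it is released during apoptosis it binds and cleaves the inhibitor of apoptosis proteins (IAPs). HTRA4 is best known from the placenta.

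The sequences before the annotated starts of HTRA1 and HTRA3 are shown because these are the secreted members with a measurable signal. They are the 250 bases before the start in RefSeq on GRCh38.p14, plus strand, 5′ to 3′, at chr10:122461303-122461552 and chr4:8269504-8269753. Capitals mark GC boxes, searched as GGGCGG on both strands.
HTRA1: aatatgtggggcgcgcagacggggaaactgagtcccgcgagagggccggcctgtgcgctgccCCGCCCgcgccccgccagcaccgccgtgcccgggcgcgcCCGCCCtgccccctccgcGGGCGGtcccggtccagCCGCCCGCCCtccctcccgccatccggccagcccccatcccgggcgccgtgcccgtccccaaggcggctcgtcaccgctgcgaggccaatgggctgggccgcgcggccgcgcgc
HTRA3: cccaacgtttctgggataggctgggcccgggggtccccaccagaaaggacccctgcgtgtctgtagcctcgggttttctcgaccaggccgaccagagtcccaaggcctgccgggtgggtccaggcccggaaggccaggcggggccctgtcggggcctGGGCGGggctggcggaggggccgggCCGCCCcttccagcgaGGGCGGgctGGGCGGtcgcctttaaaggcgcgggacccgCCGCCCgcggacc
Each window held 5 GC boxes, of which 2 in HTRA1 overlap each other, and a GC box was present in 42.6% of 35116 windows of this length. The HTRA1 window was 81.2% and the HTRA3 window 74.8% G or C, against a median of 58.0% over all windows. HTRA1 also held 1 CCAAT box (CCAAT, both strands), as did 32.0% of windows, and HTRA3 held none. Neither held TATAAA (10.7% of windows) or an AP-1 motif, TGANTCA (6.57%). HTRA2 has 2 annotated starts in that table, whose windows were 62.4% and 70.0% G or C and held no GC box and 1 GC box. These matches describe the letters only.

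Total counts per library ranged from 31398075 to 51244525. Levels are given as CPM, counts scaled to library size with TMM factors, or as the authors' FPKM, which also takes account of gene length and is used for comparing genes with each other. GSK591 replicate 3 stood apart in mitochondrial rRNA, with 932.5 CPM, against 0.410 to 20.7 CPM in the other 8 libraries, and DMSO replicate 1 was highest of the controls. Each tested member is therefore given below without these libraries too. The 6 epithelial markers summed to 7687 to 7952 CPM in GSK591, 5133 to 5331 CPM in MS023 and 6402 to 6528 CPM in DMSO. The 8 fibroblast markers summed to 27.2 to 28.5, 33.2 to 37.2 and 21.3 to 23.7 CPM in the same order of groups, and 3 of them were under 1 CPM on average. COL1A1 alone averaged 7.18, 25.1 and 11.7 CPM in that order, so the sums hide members that differ. Of the 5 fibroblast markers tested, 3 were called higher and 2 lower in GSK591 (30.1% and 32.4% of all genes). In MS023, 1 was called higher and 1 lower (25.1% and 25.9% of all genes). The 6 leukocyte markers summed to 26.8 to 28.6, 19.7 to 20.8 and 23.4 to 24.6 CPM, with 4 under 1 CPM. The 4 endothelial markers in the table summed to at most 0.611 CPM. No marker was at 0 in all 9 libraries, and their part in the results was not tested.

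The family was led by HTRA1 in GSK591 and DMSO, but not in MS023. In FPKM, the GSK591 libraries had HTRA1 at 28.6 to 29.6, HTRA2 at 9.45 to 9.89, and HTRA3 at 1.13 to 1.33. The MS023 libraries had HTRA2 at 13.01 to 13.06, HTRA1 at 11.6 to 13.8 and HTRA3 at 0.481 to 0.654. The DMSO libraries had HTRA1 at 31.1 to 33.4, HTRA2 at 11.4 to 13.6 and HTRA3 at 6.68 to 7.38. Neighbours in this order did not overlap in GSK591 or DMSO. In MS023 the libraries of HTRA1 and HTRA2 overlapped, so these levels did not differ beyond their spread, while HTRA3 lay well under both. Among genes with a mean of at least 1 FPKM in the group, HTRA1 lay at percentile 80.2 in GSK591 (13213 genes), 54 in MS023 (13039 genes) and 78.8 in DMSO (12902 genes). HTRA3 lay at percentile 3.67 in GSK591, was under 1 FPKM in MS023, and lay at percentile 36.7 in DMSO.

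**Figure D1:**
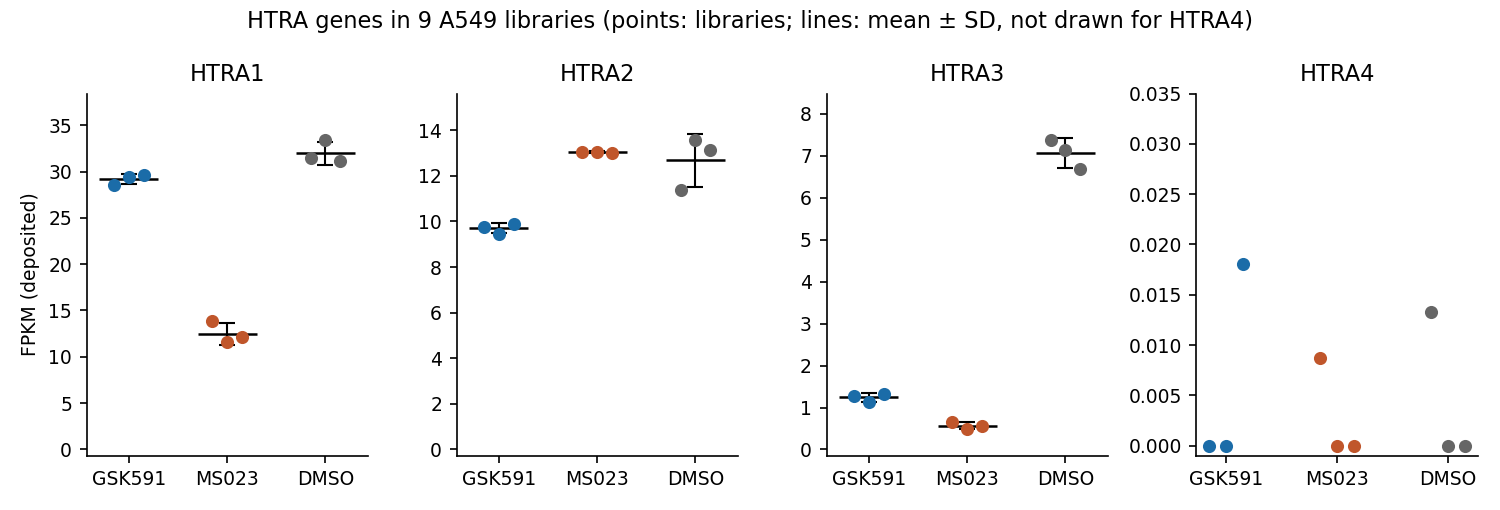
Deposited FPKM of HTRA1, HTRA2, HTRA3 and HTRA4 in GSK591, MS023 and DMSO libraries, each panel with its own linear axis. Points are the 3 libraries of a group and lines the mean ± SD (left out for HTRA4). HTRA1 is low in MS023, HTRA2 is lowest in GSK591, HTRA3 is low with both inhibitors, and HTRA4 lies near 0 in every group.

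Summed over the 4 members, the family had 40.1 ± 0.613 FPKM in GSK591, 26.1 ± 1.28 FPKM in MS023 and 51.7 ± 2.09 FPKM in DMSO (mean ± SD, n = 3 each). HTRA1 made up 72.7 ± 0.744% of that sum in GSK591, 47.8 ± 2.14% in MS023 and 61.8 ± 0.760% in DMSO. HTRA2, the mitochondrial member, made up 24.2 ± 0.516% in GSK591, 50 ± 2.37% in MS023 and 24.5 ± 1.64% in DMSO. HTRA3 made up 3.10 ± 0.248% in GSK591, 2.16 ± 0.233% in MS023 and 13.7 ± 0.893% in DMSO. The mitochondrial member therefore held about the same share in GSK591 and DMSO. Its share was larger in MS023, where it overlapped that of HTRA1. The ratio of HTRA1 to HTRA3 in FPKM was 22.2 to 26.1 in GSK591 libraries, 21.2 to 24.1 in MS023 libraries and 4.26 to 4.68 in DMSO libraries. It thus overlapped between the inhibitors, although both genes were lower in MS023 than in GSK591. These shares carry the difference in HTRA3 by which the family was chosen, and no test was made on them.

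**Figure D2:**
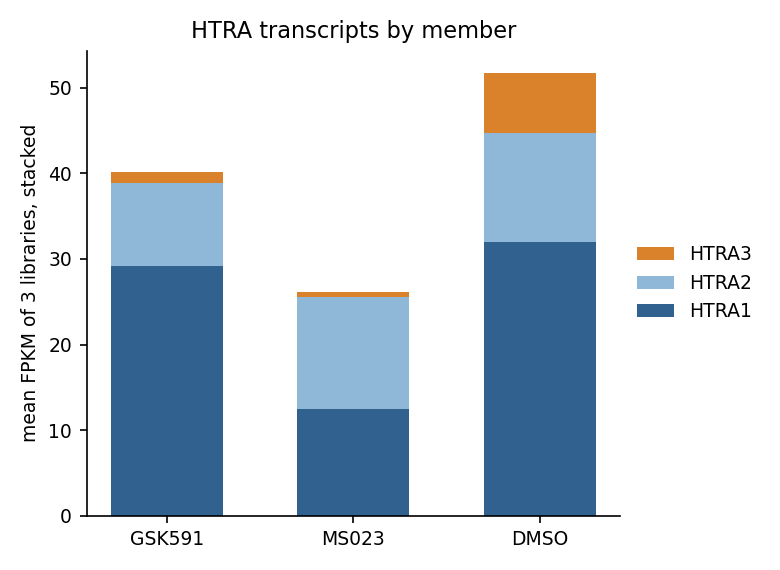
Mean FPKM of HTRA1, HTRA2 and HTRA3 over the 3 libraries of each group, stacked from 0, for GSK591, MS023 and DMSO. HTRA4 is too low to draw. The stack is lowest in MS023, where HTRA1 and HTRA2 are about equal.

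HTRA3 (ENSG00000170801, hg19 chromosome 4, 8271492 to 8308838) was the member with the largest differences from DMSO. It had 3.54, 3.22 and 3.84 CPM in GSK591 replicates 1 to 3, 1.85, 1.33 and 1.67 CPM in MS023 replicates 1 to 3, and 21.6, 19.96 and 19.3 CPM in DMSO replicates 1 to 3. The groups did not overlap, and every MS023 library was below every GSK591 library. Behind these values were 427 counts over the GSK591 libraries, 217 over the MS023 libraries and 2503 over the DMSO libraries, so HTRA3 stayed measurable in each. GSK591 was 5.71-fold below DMSO (log2 -2.51 ± 0.09, standard error) and MS023 12.3-fold below DMSO (log2 -3.63 ± 0.10). Of 18292 genes tested, 15 had a lower log2 value than HTRA3 in GSK591 and 10 in MS023, a rank that follows from how the gene was chosen. Without DMSO replicate 1 and GSK591 replicate 3 the values were -2.52 and -3.57. On log2(FPKM + 1), a scale that compresses differences at low levels, they were -1.85 and -2.36.

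HTRA3 was chosen by the comparisons with DMSO, and the direct comparison of the inhibitors was tested. The same inhibitor libraries entered both, and earlier results of these data were known, so this test is not independent of the choice. HTRA3 averaged 1.62 ± 0.267 CPM in MS023 and 3.53 ± 0.308 CPM in GSK591 (SD, n = 3 each). It was 2.16-fold lower in MS023 (log2 -1.11 ± 0.12, edgeR quasi-likelihood test, adjusted p = 1.58e-06), with a 95% interval of -1.38 to -0.85 on the log2 scale. In that comparison 65.4% of all genes tested were called, and 31.7% of all genes tested were called lower. Without DMSO replicate 1 and GSK591 replicate 3, HTRA3 stood at -1.04 between the inhibitors (edgeR adjusted p = 8.72e-06). The authors' FPKM bounds for HTRA3 were 0.510 to 0.798, 0.337 to 0.624 and 0.421 to 0.711 in the MS023 libraries and 1.02 to 1.53, 0.916 to 1.34 and 1.12 to 1.55 in the GSK591 libraries, and no pair of intervals met across the groups. These bounds are given for each library by itself and do not measure the spread between libraries. The gene is known to make a long form and a short form without the PDZ domain, which gene-level counts cannot separate. The nearest gene before HTRA3 in the files' coordinates, SH3TC1, ended 27962 bases away. It stood at 21.4 ± 0.762 CPM in GSK591, 20.1 ± 0.571 CPM in MS023 and 20.8 ± 1.61 CPM in DMSO, and passed no test (adjusted p = 0.621 for GSK591 and 0.458 for MS023 against DMSO, and 0.191 between the inhibitors). The nearest gene after it, RP11-774O3.2, had no counts in any library.

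HTRA1 (ENSG00000166033, hg19 chromosome 10, 124221041 to 124274424) fell in MS023 but not in GSK591. It had 53.0, 53.9 and 56.6 CPM in GSK591 replicates 1 to 3, 24.6, 20.7 and 22.8 CPM in MS023 replicates 1 to 3, and 57.9, 55.1 and 52.4 CPM in DMSO replicates 1 to 3. All MS023 libraries lay far below the lowest DMSO library, while GSK591 and DMSO overlapped. MS023 was 2.42-fold below DMSO (log2 -1.28 ± 0.06, edgeR adjusted p = 3.02e-10). The background in that comparison was 51% of genes called, 25.9% lower, and 498 of the 18292 genes (2.72%) had a lower log2 value than HTRA1. GSK591 differed from DMSO by a log2 of -0.02 ± 0.06 (adjusted p = 0.823), with a 95% interval of -0.14 to 0.10. Its sign turned when libraries were scaled by total counts (0.05) and with a filter of 1 CPM in 3 libraries (0.03). Without DMSO replicate 1 (0.04) or without GSK591 replicate 1 (0.02) it turned too. In FPKM the 3 GSK591 libraries all lay below the 3 DMSO libraries, but the difference of -0.13 on log2(FPKM + 1) did not pass (limma adjusted p = 0.101, range over the alternatives 0.101 to 0.993). The difference between the inhibitors itself passed, with HTRA1 2.395-fold lower in MS023 (log2 -1.26 ± 0.06, adjusted p = 8.71e-11). Without DMSO replicate 1 and GSK591 replicate 3, HTRA1 stood at 0.01 in GSK591, -1.22 in MS023 and -1.24 between the inhibitors.

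HTRA2 (ENSG00000115317, hg19 chromosome 2, 74756504 to 74760472) fell slightly in GSK591, and in MS023 it did not pass the test. It had 10.2, 9.48 and 10.7 CPM in GSK591 replicates 1 to 3, 12.5, 13.0 and 12.7 CPM in MS023 replicates 1 to 3, and 12.4, 14.3 and 14.0 CPM in DMSO replicates 1 to 3. The GSK591 libraries were below all others, whereas MS023 and DMSO overlapped, with DMSO replicate 1 the lowest of those 6. GSK591 was 1.34-fold below DMSO (log2 -0.43 ± 0.07, edgeR adjusted p = 7.34e-05), where 62.6% of all genes were called and 32.4% were lower. MS023 differed from DMSO by -0.10 ± 0.07 (adjusted p = 0.219), with a 95% interval of -0.24 to 0.04, and the sign was positive in FPKM (0.04 on log2(FPKM + 1)). Between the inhibitors HTRA2 was 1.25-fold higher in MS023 (log2 0.32 ± 0.07, adjusted p = 7.40e-04), where 33.6% of genes were called higher. Without DMSO replicate 1 and GSK591 replicate 3 the values were -0.51 in GSK591, -0.14 in MS023 and 0.37 between the inhibitors. Of the 2 tested members that the choice did not use, HTRA2 fell in GSK591 and HTRA1 fell in MS023, so neither followed HTRA3 in both comparisons.

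HTRA2 shares sequence with genes on either side. In the files' coordinates AUP1, which codes for a protein of the endoplasmic reticulum and lipid droplets, overlaps it by 563 bases, and LOXL3, a lysyl oxidase-like enzyme, by 932 bases. The strand setting of the counting is not given in the sources used here, so counts from the shared stretches are uncertain. AUP1 stood at 145.6 ± 3.11 CPM in GSK591, 120.8 ± 2.69 CPM in MS023 and 115.5 ± 7.94 CPM in DMSO. AUP1 rose in GSK591 (log2 0.34 ± 0.04, edgeR adjusted p = 1.26e-05), opposite in sign to HTRA2, and did not pass in MS023 (0.06 ± 0.04, adjusted p = 0.2465). Without DMSO replicate 1 it passed in MS023, at 0.14 (adjusted p = 0.00796, the lowest over the alternatives). LOXL3 stood at 2.44 ± 0.399 CPM in GSK591, 1.82 ± 0.162 CPM in MS023 and 1.92 ± 0.0622 CPM in DMSO. Its difference in GSK591 (0.36 ± 0.15, adjusted p = 0.0486) lost its call in 13 of 18 alternatives, with adjusted p up to 0.908.

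HTRA4 (ENSG00000169495, hg19 chromosome 8, 38831683 to 38846181) was at the limit of detection. It had 1, 0 and 2 counts in GSK591 replicates 1 to 3, 1, 2 and 2 counts in MS023 replicates 1 to 3, and 1, 1 and 2 counts in DMSO replicates 1 to 3. With 3, 5 and 4 counts over the GSK591, MS023 and DMSO libraries the groups were not told apart, and a count of 3 over a group corresponds to 0.0227 to 0.0249 CPM. The gene did not pass the filter on low counts, so 3 of the 4 members were tested. A difference in HTRA4 was not detectable at this depth.

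**Figure D3:**
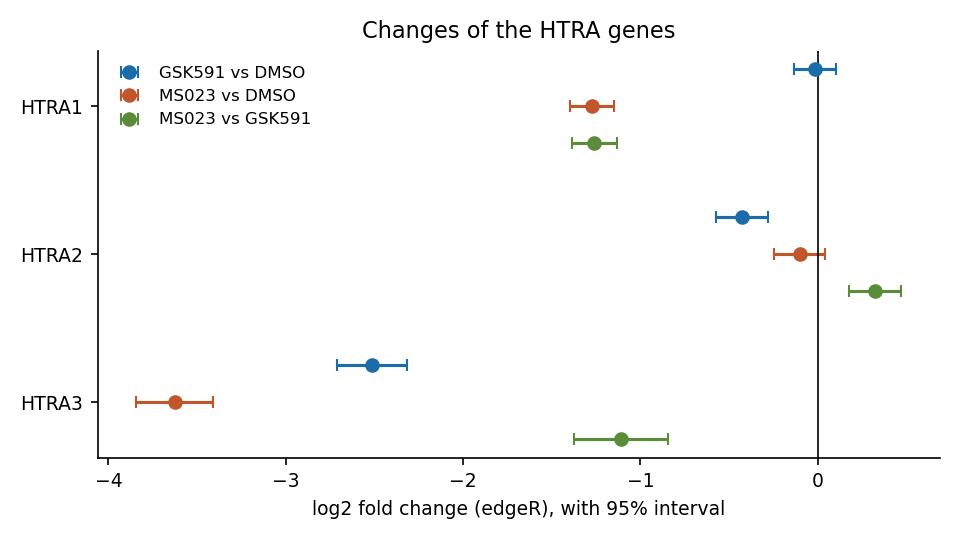
Fitted log2 fold changes with 95% intervals (edgeR, 3 libraries a group) of HTRA1, HTRA2 and HTRA3 for GSK591 against DMSO, MS023 against DMSO and MS023 against GSK591. HTRA1 lies at -1.28 in MS023 and at -0.02 in GSK591, HTRA2 lies at -0.43 in GSK591, and HTRA3, chosen for its lower level, lies at -2.51 and -3.63. The intervals of HTRA3 against DMSO are descriptive and no test, since these values entered its choice.

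The genes with the profile nearest to HTRA3 were found by the root mean square difference of log2 CPM, centred on each gene's mean, over the 9 libraries and among 12951 genes. They were LBP, which codes for the lipopolysaccharide-binding protein of plasma (0.329), SERPINA3, a serine protease inhibitor (0.340), and SDS, serine dehydratase (0.395). CHRDL2, a chordin-like antagonist of BMPs (0.457), and NTRK3, the receptor TrkC (0.468), came next. They were followed by GGT5, a gamma-glutamyl transferase (0.508), NPTX1, a neuronal pentraxin (0.539), and MYOCD, a coactivator of smooth muscle genes (0.733). LBP had 1.95 ± 0.119 CPM in GSK591, 0.719 ± 0.0914 CPM in MS023 and 6.89 ± 0.985 CPM in DMSO. NTRK3, the most abundant in CPM, had 48.7 ± 3.59 CPM in GSK591, 22.7 ± 2.18 CPM in MS023 and 143.4 ± 4.86 CPM in DMSO. SDS had the lowest value in GSK591 of the 8 (log2 -2.25 ± 0.16), and GGT5 the lowest in MS023 (-3.63 ± 0.23). In all 8 the log2 value was lower in MS023 than in GSK591, as in HTRA3. On log2(FPKM + 1), 4 of the 8 were again among the nearest 8, namely LBP, SERPINA3, SDS and NPTX1, and NTRK3 ranked 2341. The genes were chosen by their likeness, so no test is given for it.

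**Figure D4:**
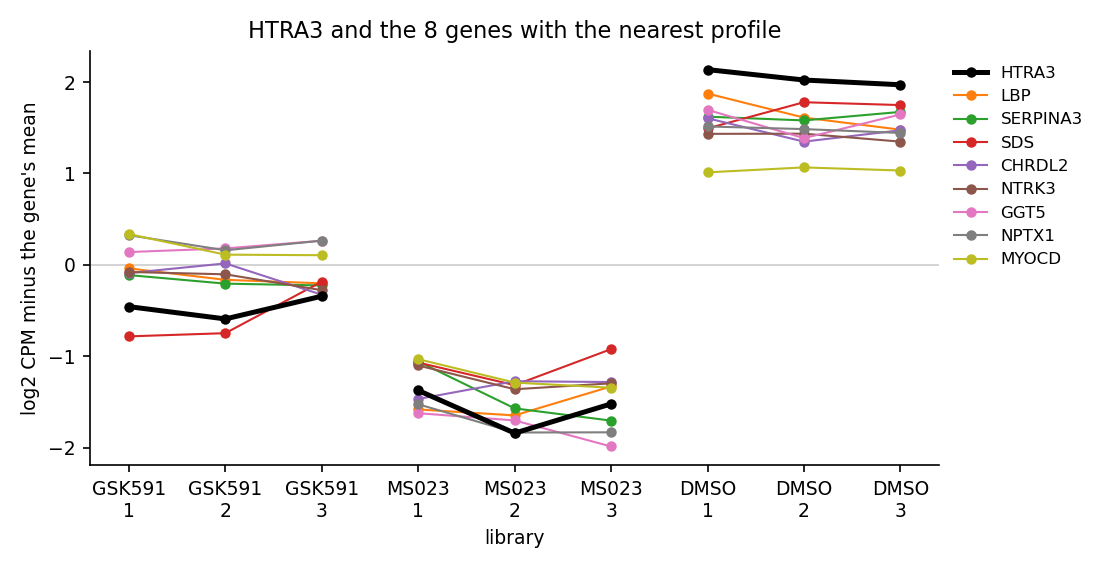
log2 CPM of HTRA3 (thick black line) and the 8 nearest genes in each of the 9 libraries, centred on each gene's mean; the libraries of GSK591, MS023 and DMSO are joined within a group. All 9 genes are highest in DMSO and lowest in MS023, and HTRA3 spans the widest range, 2.14 to -1.84. HTRA3 was chosen for its lower level and the others for their likeness to it, so neither is a separate result.

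The proteins that HTRA2 meets were described from a list of 8 IAPs and IAP antagonists, all measured. In GSK591, 3 rose and BIRC5 fell, with a median log2 change of 0.33 over the list and 0.01 over all genes. Of all genes tested, 30.1% were called higher and 32.4% lower in GSK591, and 25.1% higher and 25.9% lower in MS023. BIRC3, an IAP of the TNF receptor complex, rose 3.62-fold, to 129.4 ± 11.9 CPM in GSK591, against 35.8 ± 1.94 CPM in DMSO (adjusted p = 5.63e-12). BIRC6 rose by 0.35 ± 0.04, and BIRC5, the mitotic survivin, fell by 0.96 on the log2 scale (adjusted p = 3.40e-10). DIABLO, the IAP antagonist Smac, rose by 0.32 ± 0.07 in counts, but stood at -0.03 in the authors' FPKM without a call (adjusted p up to 0.779 over the alternatives). In MS023, BIRC3 rose by 0.55 ± 0.06, and BIRC5 (-0.32 ± 0.05), DIABLO (-0.33 ± 0.07) and BIRC6 (-0.18 ± 0.04) fell, with a list median of -0.06. The calls of DIABLO and BIRC6 in MS023 ended in FPKM, with adjusted p up to 0.357 and 0.238, which left 1 of 8 lower. Without MS023 replicate 1, 2 of 8 were higher. XIAP, the best-known target of HTRA2, stood at -0.04 ± 0.04 in GSK591 (adjusted p = 0.338) and -0.03 ± 0.04 in MS023 (adjusted p = 0.573).

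Mitochondrial proteases and partners of HTRA2 made a list of 18 genes, all measured. In GSK591, 6 rose (against 30.1% of all genes) and 8 fell (against 32.4% of all genes), with a median of -0.07. LACTB, a filament-forming protein of the intermembrane space, rose by 0.88 ± 0.05, and XPNPEP3, an aminopeptidase, by 0.62 ± 0.04. The inner membrane peptidase subunits IMMP1L (-0.71 ± 0.07) and IMMP2L (-0.57 ± 0.06) fell most. In MS023, 5 rose (against 25.1% of all genes) and 6 fell (against 25.9% of all genes), with a median of -0.05. In FPKM 2 were higher, and in unfiltered FPKM 2 were lower. SPG7, an inner membrane AAA protease subunit, rose by 0.28 ± 0.04 and PMPCA, a subunit of the presequence peptidase, by 0.23 ± 0.05. PINK1, a kinase of mitochondrial quality control that has been tied to HTRA2, rose by 0.61 ± 0.08 in GSK591 (adjusted p = 6.59e-06) and by 0.38 ± 0.08 in MS023. Its value in GSK591 was not recomputed under the alternatives. CLPX rose by 0.27 ± 0.04 and LONP1 by 0.09 ± 0.03 in MS023. These calls of PINK1, CLPX and LONP1 in MS023 ended in FPKM (adjusted p up to 0.423, 0.501 and 0.131), and that of LONP1 in several other settings. XPNPEP3 (-0.47 ± 0.04) and PITRM1 (-0.30 ± 0.04) fell most, and PITRM1 lost its call in unfiltered FPKM (adjusted p = 0.0632, the highest of its alternatives). XPNPEP3 thus changed in opposite directions, as did LACTB, which fell by 0.29 on the log2 scale in MS023 (adjusted p = 9.05e-05). Between the inhibitors XPNPEP3 was lower in MS023 by -1.09 ± 0.04 and LACTB by -1.17 ± 0.05 (adjusted p = 7.85e-12 and 1.32e-11).

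Of 13 matrix proteins that secreted HTRA proteases are known to cut, 8 were measured. In GSK591, 4 rose (against 30.1% of all genes) and 2 fell (against 32.4% of all genes), with a median of 0.28. Without GSK591 replicate 2, 2 were called higher. EFEMP1, also called fibulin-3, rose 2.53-fold, to 76.3 ± 5.31 CPM in GSK591, against 30.2 ± 0.609 CPM in DMSO. Clusterin (CLU) rose by 0.40 ± 0.04, fibronectin (FN1) by 0.15 ± 0.05 and versican (VCAN) by 0.12 ± 0.04. LTBP1, which stores latent TGF-beta in the matrix, fell by 0.48, and fibulin-5 (FBLN5) by 0.50 on the log2 scale. The FN1 libraries of GSK591 and DMSO overlapped, and FN1 lost its call without GSK591 replicate 2 (adjusted p = 0.0676, the highest of its alternatives). VCAN lost it in 7 alternatives (adjusted p up to 0.223), and FBLN5 in unfiltered FPKM and without DMSO replicate 1 and GSK591 replicate 3 (adjusted p = 0.0533 and 0.0527). In MS023, 3 rose (against 25.1% of all genes) and 3 fell (against 25.9% of all genes), with a median of -0.03. CLU rose 1.62-fold, to 782.6 ± 28.2 CPM in MS023, against 481.5 ± 22.5 CPM in DMSO. Elastin (ELN) rose by 1.46 ± 0.21, from low counts, 172 over the MS023 libraries and 58 over the DMSO libraries. Fibromodulin (FMOD) rose by 2.94 ± 0.38, with 108 counts in MS023 and 13 in DMSO, and lost its call in unfiltered FPKM (adjusted p = 0.485). EFEMP1 (-0.92 ± 0.06), LTBP1 (-0.30 ± 0.04) and VCAN (-0.43 ± 0.04) fell, and VCAN lost its call in FPKM (adjusted p up to 0.181). Between the inhibitors EFEMP1 was 4.76-fold lower in MS023 (adjusted p = 1.32e-13).

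TGF-beta family genes were described because HTRA1 and HTRA3 are reported to act on these ligands. Of 11 ligands, 10 were measured, and in GSK591 6 rose (against 30.1% of all genes) and 2 fell (against 32.4% of all genes), with a median of 0.21. BMP7 rose 4.59-fold, to 5.11 ± 0.308 CPM in GSK591, against 1.11 ± 0.0329 CPM in DMSO, and GDF15, a stress-induced ligand, rose 2.64-fold. Among the activin and inhibin subunits, INHBB fell by 0.25 and INHBA by 0.79 on the log2 scale. INHBA had low counts, 81 over the GSK591 libraries and 143 over the DMSO libraries. It lost its call without GSK591 replicate 2 (adjusted p = 0.0702) and in unfiltered FPKM (0.220, the highest of its alternatives). In filtered FPKM, too, 1 ligand was lower. In MS023, 5 ligands rose (against 25.1% of all genes) and TGFB2 fell (against 25.9% of all genes), with a median of 0.50. They were BMP7 (2.53 ± 0.13), INHBB (1.42 ± 0.04), GDF15 (1.13 ± 0.06), BMP2 (1.09 ± 0.18) and BMP4 (0.52 ± 0.10), of which BMP4 lost its call in unfiltered FPKM (adjusted p = 0.116). BMP2 had low counts, 256 over the MS023 libraries and 113 over the DMSO libraries. TGFB2 fell 2.60-fold, to 41.2 ± 2.59 CPM in MS023, against 107.3 ± 2.24 CPM in DMSO. In GSK591 TGFB2 rose by 0.78 ± 0.05 (adjusted p = 1.74e-09), and the inhibitors differed by -2.16 ± 0.05 (adjusted p = 3.53e-14).

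Of 18 receptors and SMADs, all measured, 5 rose (against 30.1% of all genes) and 10 fell (against 32.4% of all genes) in GSK591, with a median of -0.17. In unfiltered FPKM 6 were lower. The inhibitory SMAD7 (0.87 ± 0.06) and SMAD6 (0.47 ± 0.06), the signal transducer SMAD3 (0.70 ± 0.04), and the receptors TGFBR2 (0.55 ± 0.04) and TGFBR3 (0.28 ± 0.05) rose. SMAD9 (-0.88 ± 0.12) and SMAD2 (-0.78 ± 0.04) fell most. In MS023, 6 rose (against 25.1% of all genes) and 5 fell (against 25.9% of all genes), with a median of 0.06, and in unfiltered FPKM 2 were higher. The activin receptor ACVR1B rose most (0.46 ± 0.04), followed by BMPR1B (0.25 ± 0.04), whose call ended in unfiltered FPKM (adjusted p = 0.0520). SMAD2 (-0.46 ± 0.04), SMAD7 (-0.45 ± 0.06), SMAD1 (-0.35 ± 0.07), BMPR2 (-0.31 ± 0.04) and TGFBR1 (-0.28 ± 0.03) fell, and SMAD1 lost its call in FPKM (adjusted p up to 0.889).

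The 11 targets of TGF-beta and BMP signalling on the list were all measured. In GSK591, 5 rose (against 30.1% of all genes) and 4 fell (against 32.4% of all genes), with a median of 0.09. In MS023, 2 rose (against 25.1% of all genes) and 9 fell (against 25.9% of all genes), with a median of -0.78, against 0.00 over all genes. In GSK591, CTGF (0.48 ± 0.07), LTBP2 (0.45 ± 0.07), PMEPA1 (0.32 ± 0.03) and TGFBI (0.25 ± 0.03) were among those that rose, and TGFBI lost its call in FPKM (adjusted p up to 0.140). ID4, ID1, COL1A1 and ID2 fell by 0.95, 0.78, 0.71 and 0.55 on the log2 scale. In MS023 TGFBI, a secreted adhesion protein induced by TGF-beta, fell 3.03-fold, to 252.1 ± 1.83 CPM, against 763.6 ± 16.5 CPM in DMSO. PMEPA1, a feedback inhibitor of the pathway, fell 3.03-fold. CTGF (1.26 ± 0.07) and COL1A1, a collagen chain that is also on the fibroblast list (1.10 ± 0.08), were the 2 that rose.

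**Figure D5:**
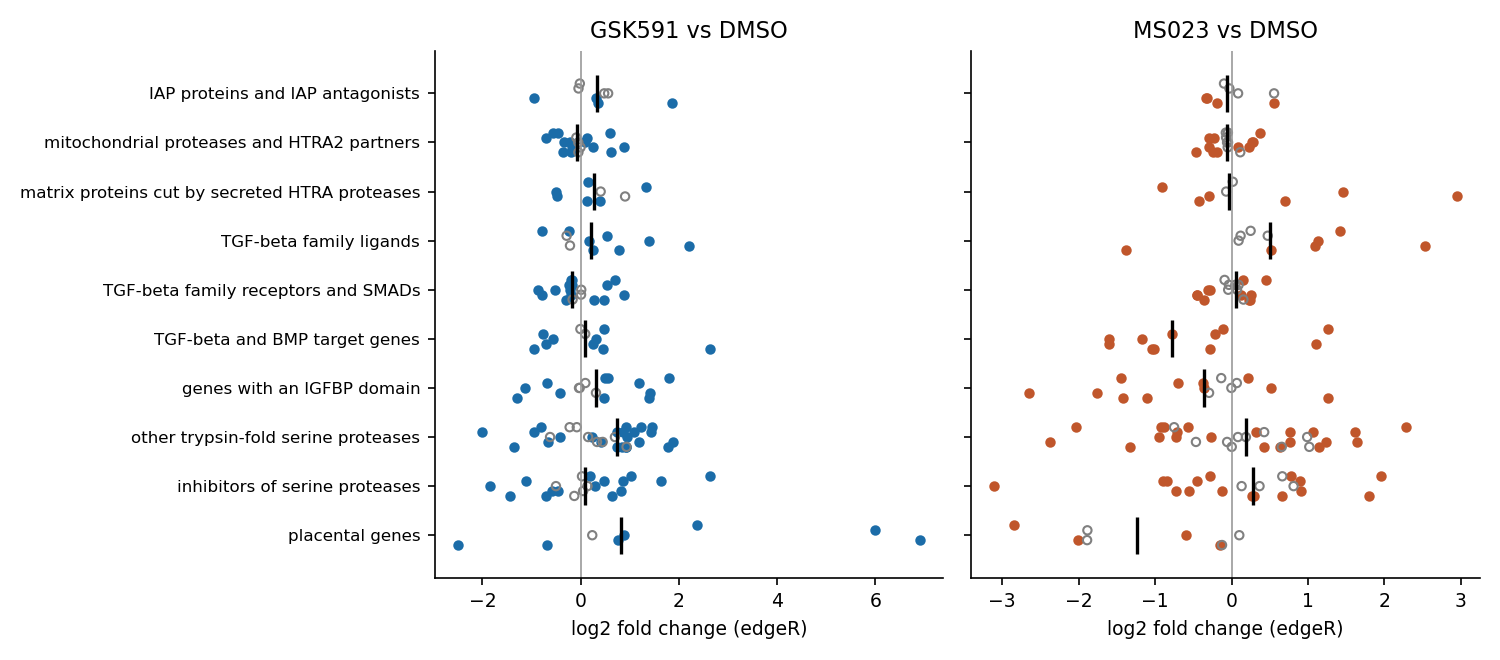
log2 fold changes (edgeR) of the measured members of 10 gene lists in GSK591 against DMSO and MS023 against DMSO. Filled points passed at an adjusted p under 0.05, open points did not, and black bars mark the medians. The median of the TGF-beta and BMP targets is -0.78 in MS023 and 0.09 in GSK591; the points of placental genes beyond 5 in GSK591 rest on 1 count each in DMSO.

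Genes with an IGFBP domain share the amino-terminal segment of the secreted HTRA proteases. Of 17, 15 were measured, and in GSK591 7 rose (against 30.1% of all genes) and 4 fell (against 32.4% of all genes), with a median of 0.31. IGFBP5 rose by 1.80 ± 0.12 and WISP1, a CCN family member, by 1.41 ± 0.20. WISP1 had low counts, 218 over the GSK591 libraries and 84 over the DMSO libraries. IGFBP3, the main carrier of IGFs in serum, fell 2.45-fold, to 149.3 ± 4.39 CPM in GSK591, against 365.8 ± 30.8 CPM in DMSO. KAZALD1 (-1.14 ± 0.07), IGFBP4 (-0.68 ± 0.04) and IGFBP1 (-0.42 ± 0.14) fell too, and IGFBP1 lost its call in 6 alternatives, such as without DMSO replicate 1 (adjusted p = 0.129, up to 0.135 over the alternatives). In MS023, 3 rose (against 25.1% of all genes) and 8 fell (against 25.9% of all genes), with a median of -0.35. CTGF (1.26 ± 0.07), IGFBPL1 (0.51 ± 0.09) and CYR61 (0.22 ± 0.05) rose, and CYR61 lost its call in FPKM (adjusted p up to 0.121). IGFBP1 fell 3.37-fold and IGFBP6 by 1.44 on the log2 scale.

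Among 47 other proteases of the trypsin fold, 31 were measured. In GSK591, 17 rose (against 30.1% of all genes) and 6 fell (against 32.4% of all genes), with a median of 0.73. PLAT, the tissue plasminogen activator, rose by 1.45 ± 0.10 and PRSS35 by 1.43 ± 0.20. PRSS35 had low counts, 238 over the GSK591 libraries and 91 over the DMSO libraries. Coagulation factor VII (F7) fell 4.01-fold, from low counts, 54 over the GSK591 libraries and 224 over the DMSO libraries. Complement factor D (CFD) fell by 0.95 on the log2 scale. In MS023, 11 rose (against 25.1% of all genes) and 10 fell (against 25.9% of all genes), with a median of 0.19. HABP2, a hyaluronan-binding protease of plasma, rose 4.87-fold and PRSS3, mesotrypsin, by 1.65 ± 0.21. PLAU, urokinase, fell 4.09-fold, to 10.6 ± 0.145 CPM in MS023, against 43.5 ± 1.46 CPM in DMSO, and the complement protease C1S fell by 1.33 on the log2 scale. In FPKM with a filter, the number of proteases that rose was 9 in GSK591 and 5 in MS023. No gene of this list stood as low against DMSO as HTRA3. That gene was chosen for its low level there, so this ranking is no separate result.

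Of 27 inhibitors of serine proteases, 20 were measured. In GSK591, 9 rose (against 30.1% of all genes) and 6 fell (against 32.4% of all genes), with a median of 0.09. SERPINE2, protease nexin-1, was among those that rose (1.63 ± 0.05). SERPINA3, antichymotrypsin, which is also among the genes nearest to HTRA3, fell 3.58-fold, and SLPI, an inhibitor in airway secretions, by 1.44 on the log2 scale. In MS023, 8 rose (against 25.1% of all genes) and 8 fell (against 25.9% of all genes), with a median of 0.28. SERPINF2, antiplasmin, rose by 1.79 ± 0.11 and SERPINI1, neuroserpin, by 0.90 ± 0.09. SERPINA3 fell 8.60-fold, to 0.613 ± 0.164 CPM in MS023, against 5.39 ± 0.176 CPM in DMSO, and TFPI2 fell by 0.90 on the log2 scale.

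Placental genes were listed because HTRA3 and HTRA4 are known from the placenta, and 8 of 20 were measured. In GSK591, 5 rose (against 30.1% of all genes) and 2 fell (against 32.4% of all genes). The count higher was 3 with a filter of 1 CPM in 3 libraries and 2 in filtered FPKM. The median of 0.83 lies between ADAM12 and PAPPA, with PSG4 and PSG5, at 1 DMSO count each, above it. PAPPA, a protease that cuts IGF-binding proteins, rose 1.85-fold and ADAM12, a metalloprotease, by 0.76 ± 0.10. The pregnancy-specific glycoproteins PSG4, PSG5 and PSG1 had 162, 84 and 47 counts over the GSK591 libraries, against 1, 1 and 9 over the DMSO libraries, and reads of this family can be shared between its near-identical members. INSL4, a placental insulin-like peptide, fell 5.66-fold, to 11.2 ± 1.90 CPM in GSK591, against 63.0 ± 2.36 CPM in DMSO, and PEG10 fell by 0.69 on the log2 scale. In MS023 none rose (against 25.1% of all genes) and 4 fell (against 25.9% of all genes), or 2 in unfiltered FPKM. The fitted median of -1.24 includes PSG4 and PSG5, which had 0 counts in MS023 and 1 in DMSO and support no fold. ADAM12 fell 4.03-fold and PAPPA 1.51-fold. PEG10 fell by 0.15 on the log2 scale, and lost its call in unfiltered FPKM (adjusted p = 0.0868). PSG1 had 1 count over the MS023 libraries and 9 over the DMSO libraries, and its call ended in 10 alternatives (adjusted p up to 0.202). INSL4 stood at -0.12 ± 0.09 in MS023 (adjusted p = 0.267), unlike in GSK591, and differed between the inhibitors by 2.38 ± 0.10 (adjusted p = 3.52e-11).

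In the direct comparison of MS023 with GSK591 the list medians were -0.28 for the IAPs (1 higher, 3 lower of 8), 0.12 for mitochondrial proteases (10 higher, 5 lower of 18) and 0.24 for matrix proteins (5 higher, 3 lower of 8), with 0.00 over all genes. Of all genes tested, 33.6% were called higher and 31.7% lower. In unfiltered FPKM 6 mitochondrial proteases were higher, and in FPKM 3 were lower and 2 matrix proteins higher. The medians were 0.30 for TGF-beta ligands (5 higher, 3 lower of 10), 0.10 for receptors and SMADs (9 higher, 5 lower of 18) and -0.31 for TGF-beta and BMP targets (2 higher, 7 lower of 11). The ligands called higher numbered 1 in filtered FPKM, and 3 in unfiltered FPKM, without GSK591 replicate 3 (also with DMSO replicate 1 left out) or without MS023 replicate 3. BMP4, BMP7 and TGFB3 lost their calls in 10 of 20, 6 of 20 and 8 of 18 alternatives, with adjusted p up to 0.450, 0.143 and 0.134. The medians were -0.34 for IGFBP domain genes (3 higher, 8 lower of 15), -0.33 for other trypsin-fold proteases (8 higher, 14 lower of 31) and -0.01 for protease inhibitors (7 higher, 9 lower of 20). In filtered FPKM 5 trypsin-fold proteases were higher and 8 lower. For placental genes the fitted median was -2.13 (2 higher, 5 lower of 8), which includes PSG4 and PSG5 without counts in MS023. With the filter of 1 CPM 3 placental genes were lower, and in filtered FPKM 2. PLAU was 9.65-fold lower in MS023, at 10.6 ± 0.145 CPM, against 102.5 ± 4.72 CPM in GSK591, and F7 was 8.44-fold higher, at 3.802 ± 0.116 CPM, against 0.449 ± 0.0860 CPM. BIRC5 was the IAP that was higher in MS023 (0.64 ± 0.05), and BIRC3 (-1.30 ± 0.06), BIRC6 (-0.53 ± 0.04) and DIABLO (-0.65 ± 0.07) were lower, with the call of DIABLO lost in FPKM (adjusted p up to 0.459). COL1A1 (1.81 ± 0.08) and CTGF (0.78 ± 0.07) were the TGF-beta targets that were higher.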

How the data were processed

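RNA-seq data of A549 cells were taken from the authors' deposited count table (raw read counts per gene, not normalised, 9 libraries) and from 9 deposited FPKM tables in the layout of Cufflinks gene tables, per the file headers. The submitters' processing notes name cutadapt, STAR, featureCounts, DESeq2 and build hg19. No source used here gives versions, annotation or strand setting. Cufflinks starts count from 0 and were raised by 1. FPKM of 108 identifiers listed at several loci was summed.

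The software was edgeR 4.0.16 under R 4.3.3. The filterByExpr step (minimum count 10, minimum total 15) kept 18292 genes. TMM factors scaled the libraries. All 9 entered a single quasi-likelihood fit, without covariates beyond group. P-values are two-sided and adjusted by Benjamini-Hochberg over all genes, with a threshold of 0.05. Standard errors of log2 changes were derived from the F statistic (absolute change over root F). Fitted fold changes are given. Scripts were tested on simulated data. Counting floors cover counting error only.

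The members and the gene lists were chosen with earlier results of these data known. Named genes are, per list and comparison, up to 2 in each direction with the largest change among those with adjusted p under 0.05, at least 1 CPM and no overlap of libraries, plus neighbours of members and the 8 genes nearest to HTRA3. Further list members are named where a direction held 5 or fewer calls or where the text singles them out, which was done after their values were seen. Values against DMSO of XIAP, of PINK1 and TGFB2 in GSK591, and of LACTB and INSL4 in MS023 were not recomputed under the alternatives. Alternatives were RLE and total-count scaling, no filter or 1 CPM in 3 libraries, DESeq2 1.42.0, limma 3.58.1 on log2(FPKM + 1) or log2(FPKM + 0.1) with a filter of FPKM 1 in 3 libraries or without one, a replicate block, each library left out, and only the 6 libraries compared. Leaving out DMSO replicate 1 and GSK591 replicate 3 together was added after seeing the data. No libraries had identical counts. A list member that the named-gene rule would take is not reported here; the counts and medians of its lists include it.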

Additional observations from a re-analysis of the deposited data

How the results depend on the processing

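HTRA1, HTRA2 and HTRA3 kept their direction and their side of the threshold in the tested comparisons under all 20 alternatives, apart from the signs of the uncalled differences named in the report. HTRA3 against DMSO, which has no test, moved beyond its replicate spread in FPKM. In GSK591 it was -1.845 on log2(FPKM + 1), with or without a filter. In MS023 it was -2.364 on that scale, with or without a filter, and -3.432 on log2(FPKM + 0.1). A pseudocount shrinks changes of low genes by construction. The number of genes called in MS023 against DMSO was 9327, and 5774, 5763 and 5470 in FPKM with a pseudocount of 1, of 0.1 and without a filter. DIABLO in GSK591 against DMSO turned to -0.02548, -0.02581 and -0.02548 in the same settings, and LOXL3 in MS023 against GSK591 to 0.01527 in unfiltered FPKM; the cause was not tested. With each library left out, HTRA1 ranged from -0.05762 to 0.03557 in GSK591, -1.34 to -1.216 in MS023 and -1.318 to -1.204 between the inhibitors. HTRA2 ranged from -0.4663 to -0.3747, -0.1411 to -0.04948 and 0.2694 to 0.3667, and HTRA3 from -2.567 to -2.444, -3.746 to -3.516 and -1.226 to -1.005. Same-numbered replicates were not paired, since their deviations correlated with r from -0.43 to 0.258 and only 2 of 9 pairs were over 0.1. With the replicate block HTRA1 stood at -0.01444, -1.278 and -1.264, HTRA2 at -0.427, -0.09869 and 0.3283, and HTRA3 at -2.512, -3.637 and -1.125, and no call of these genes changed. Of 241 results recomputed, 183 kept their call (or their count within 1.5 times) in every setting. A turned sign of a difference that was uncalled in both settings was not counted as a change. No fitted value is given for HTRA4, which had 0 to 2 counts a library.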
